A study of Mus musculus with 12 samples.

Results

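The hypoxia-inducible genes described here are Hif1a, Egln1, Egln3, Bnip3, Vegfa, Slc2a1, Ddit4, Adm, Ndrg1 and P4ha1. They were found by gene symbol in the array annotation, which gave 23 of the 22626 probe sets tested and all 10 of the named genes, out of 12393 genes in all. Their expression was measured on Affymetrix mouse 430A arrays in the scraped epithelial layer of the colon of male C57BL/6 mice aged 6 to 8 weeks. All mice first ate a soya-free powdered diet (RM3) for 14 days. The wild type control and POR-null control groups then stayed on that diet, and the wild type quercetin and POR-null quercetin groups ate it for 24 hours with quercetin, a plant flavonol, at 7 mg per mouse. POR is the reductase that supplies electrons to microsomal cytochromes P450. The labels do not say in which cells the null line lacks it, and in the literature the line is described as deleted for it in hepatocytes. The deleted gene is not analysed here. Each array carried RNA pooled from 3 mice and each group had 3 arrays, so n is 3 pools per group throughout and the p-values measure the spread between pools.

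Cells sense oxygen through the HIF transcription factors. When oxygen is plentiful, prolyl hydroxylases of the EGLN family mark the HIF alpha subunit, which the VHL ubiquitin ligase then recognises and sends for degradation. When oxygen is low the alpha subunit persists, pairs with ARNT and binds hypoxia response elements, raising genes of glucose uptake, glycolysis, blood vessel growth, mitochondrial turnover and collagen processing. The colon epithelium lies on a steep oxygen gradient from its blood supply to the anoxic lumen, and HIF activity is a normal feature of its surface cells. Quercetin is known as an inhibitor of HIF prolyl hydroxylases in cell culture.

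Array medians lay between 5.90 and 5.98 log2 units, and 3 prime minus 5 prime signal of the Gapdh control probe sets between -0.05 and 0.17. For the actin control probe sets the same measure lay between 0.97 and 1.29, so signal was higher at the 3 prime end there. Colonocyte markers (11 of 12 measured, among them Epcam, Car1 and Slc26a3) had list means between 11.23 and 11.56 log2 units in every array. Colonocyte RNA was thus present in each, but such signal does not show how much other tissue was taken with the epithelial layer. Other cells were present as well. Smooth muscle markers (12 of 13 measured) had list means of 5.95 to 6.26 in wild type control, 6.43 to 9.83 in wild type quercetin, 6.29 to 7.97 in POR-null control and 7.43 to 7.90 in POR-null quercetin arrays. Pancreatic acinar markers (11 of 14 measured) stood at 8.94 and 7.56 in wild type control arrays 1 and 2 and at 9.88 in POR-null quercetin array 2, against 6.09 to 7.19 in the other arrays.

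By the brightest probe set, the POR-null control group had the highest mean of the 4 groups for 7 of the 10 hypoxia-inducible genes. These were Hif1a, Egln3, Bnip3, Vegfa, Slc2a1, Ddit4 and P4ha1. Over all 12393 genes, 22.5% had their highest mean in that group. A dimmer Vegfa probe set was lowest in that group (6.22), and the brightest read 7.07, 7.34 and 7.75 there. Dimmer probe sets of P4ha1 and Hif1a were highest in wild type control (4.62) and POR-null quercetin arrays (6.13). The other dimmer probe sets of Hif1a, Egln3 and Slc2a1 were highest in POR-null control, as were some of Ndrg1. The members were chosen with earlier results of these data known, so shares of all genes are a description and not an independent comparison. Adm and Ndrg1 were highest in wild type control arrays, 2 of 10 against 29.8% of all genes, and Egln1 in wild type quercetin arrays, 1 of 10 against 25.2%. By its brightest probe set no member was highest in POR-null quercetin arrays, against 22.4% of all genes. The average log2 signal over the 10 genes was 7.79, 7.99 and 7.85 in the 3 POR-null control arrays and lay between 7.56 and 7.69 in the other 9 arrays. By limma 0 of 22626 probe sets passed an adjusted p of 0.05 in each of the 5 contrasts, and between 541 and 1537 had an unadjusted p under 0.05, so these are descriptions of 12 pools and no member can be called changed. In bulk tissue, fewer cells of a type and less RNA per cell cannot be told apart.

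**Figure D1:**
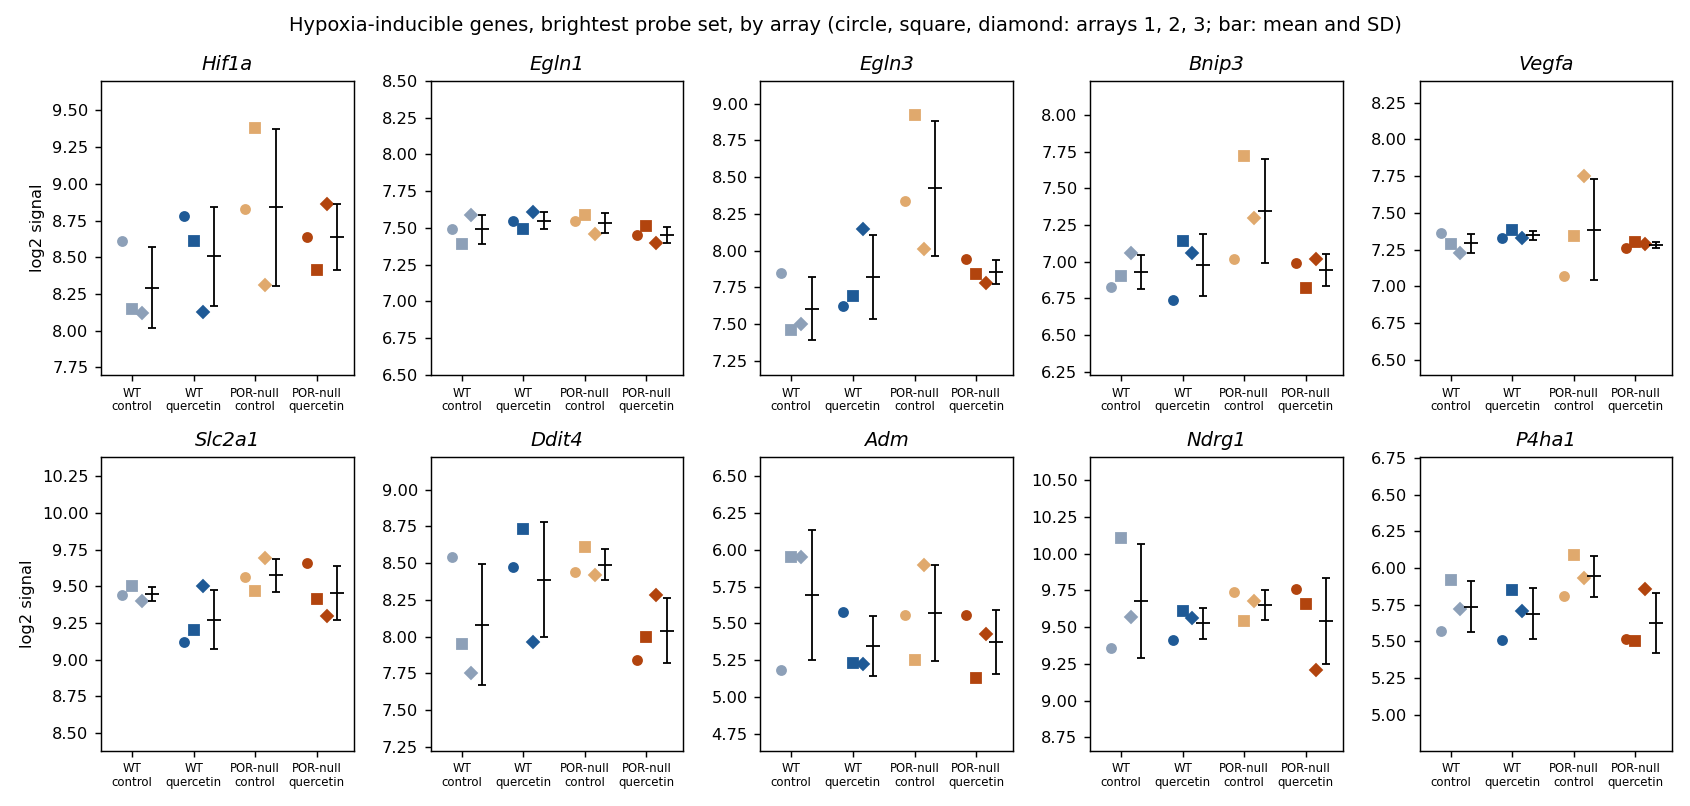
Log2 signal of the brightest probe set of each hypoxia-inducible gene in each of 12 arrays (3 per group; circle, square and diamond for arrays 1, 2 and 3), with the group mean and SD as a bar; each panel spans 2 log2 units. For Egln3 the POR-null control arrays (8.34, 8.92 and 8.01) lie above all POR-null quercetin arrays (7.94, 7.84 and 7.78).

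The promoters of 4 members are shown because these genes had the largest log2 differences between the diets in POR-null mice. Each sequence is from RefSeq (GRCm38.p6), is 300 bases long, runs 5′ to 3′ on the gene's strand with its last 50 bases after the annotated start, and has the core of the hypoxia response element, ACGTG or its reverse complement CACGT, in capitals. Egln3 is at chr12:54203825-54204124 on the minus strand, Bnip3 at chr7:138909457-138909756 on the minus strand, Ddit4 at chr10:59951721-59952020 on the minus strand and P4ha1 at chr10:59323046-59323345 on the plus strand.
Egln3: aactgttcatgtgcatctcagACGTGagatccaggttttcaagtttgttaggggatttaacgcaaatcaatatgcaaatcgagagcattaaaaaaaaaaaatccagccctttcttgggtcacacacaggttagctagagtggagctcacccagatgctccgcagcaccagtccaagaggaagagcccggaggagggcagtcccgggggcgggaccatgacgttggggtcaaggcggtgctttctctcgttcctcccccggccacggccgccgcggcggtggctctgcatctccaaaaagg
Bnip3: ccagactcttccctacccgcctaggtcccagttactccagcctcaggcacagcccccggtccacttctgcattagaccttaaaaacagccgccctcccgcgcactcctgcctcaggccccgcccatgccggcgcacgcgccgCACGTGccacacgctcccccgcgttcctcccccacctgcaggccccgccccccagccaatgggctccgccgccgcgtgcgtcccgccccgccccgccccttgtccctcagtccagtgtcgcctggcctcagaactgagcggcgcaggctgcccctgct
Ddit4: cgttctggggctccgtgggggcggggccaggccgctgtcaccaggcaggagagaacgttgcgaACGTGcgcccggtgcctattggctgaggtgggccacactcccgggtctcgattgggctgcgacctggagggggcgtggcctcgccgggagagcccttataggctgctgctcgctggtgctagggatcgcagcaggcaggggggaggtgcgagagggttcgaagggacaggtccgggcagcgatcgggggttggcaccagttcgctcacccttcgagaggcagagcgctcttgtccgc
P4ha1: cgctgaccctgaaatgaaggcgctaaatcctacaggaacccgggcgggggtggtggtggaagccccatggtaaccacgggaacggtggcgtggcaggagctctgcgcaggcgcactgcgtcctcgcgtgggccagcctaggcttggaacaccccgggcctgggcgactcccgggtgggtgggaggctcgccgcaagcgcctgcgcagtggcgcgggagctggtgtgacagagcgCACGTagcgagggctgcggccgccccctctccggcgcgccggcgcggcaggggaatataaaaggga
In Bnip3 the capitals are a palindrome that reads as the core on both strands. The table of promoters held 10 windows for 9 members (Vegfa has 2 annotated starts), and Ndrg1 had no entry. The core ACGTG was present on either strand in 8 of the 10 windows, against 19.6% of all 32851 promoter windows of the same length. The other form of the core, GCGTG, was present in 7 of 10 windows, against 32.4% of all. The windows of Adm and of the first Vegfa start held no ACGTG. A match of 5 letters is a description of the window and not a measured binding site.

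Quercetin was compared with the control diet in POR-null mice to ask what the flavonol does in this line. All 10 members had a lower mean on quercetin, against 47.1% of all genes, with a median log2 difference of -0.20 against 0.01 over all genes. As the members were chosen with earlier results known and were read on the same pools, they are not 10 separate observations. The largest difference was that of Egln3, and Ddit4, Bnip3 and P4ha1 followed. All the other members differed by less than their standard error, so their lower means are values without a direction. By limma 0 of 23 member probe sets and 0% of all probe sets passed an adjusted p of 0.05. At an unadjusted p under 0.05 there were 3 of 10 members (Egln3, Bnip3 and P4ha1), where 2.56% of all genes were. The groups did not overlap for Egln3 and Ddit4, 2 of 10 members, against 6.78% of all genes.

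Among the oxygen sensors, Egln3 is the prolyl hydroxylase whose own transcription responds most to HIF in many cells. On its brightest probe set the POR-null control arrays read 8.34, 8.92 and 8.01, and the quercetin arrays 7.94, 7.84 and 7.78 log2 units. The quercetin arrays were close together and all below the controls, of which array 2 was far the highest. The log2 difference was -0.57 (SE 0.20, n = 3 arrays per group, 0.674-fold; limma adjusted p = 0.9996). A second Egln3 probe set gave -0.63 (SE 0.20), with control arrays at 7.77, 8.20 and 7.36 and quercetin arrays at 7.35, 7.08 and 7.01. Without POR-null control array 2 the difference of the brightest probe set was -0.32. Egln1, the main oxygen sensor of most cells, had the smallest difference of the 10 members, with a mean of 7.45 (SD 0.06) on quercetin and 7.53 (SD 0.07) on control diet. Its log2 difference was -0.08 with a 95% interval from -0.27 to 0.11. Hif1a, which encodes the alpha subunit itself and is regulated mainly at the protein level, read 8.83, 9.38 and 8.31 in control and 8.64, 8.41 and 8.86 in quercetin arrays. These groups overlapped, and the difference of -0.20 (SE 0.24) was smaller than its standard error and became 0.07 without POR-null control array 2.

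Bnip3, a mitochondrial protein that marks the organelle for removal by autophagy, had control arrays at 7.02, 7.72 and 7.30 and quercetin arrays at 6.99, 6.82 and 7.02. Its lowest control array equalled its highest quercetin array. The log2 difference was -0.40 (SE 0.16; limma adjusted p = 0.9996, n = 3), and -0.22 without POR-null control array 2. Ddit4, also called REDD1, restrains the growth kinase complex of mTOR when oxygen or energy is short. Ddit4 read 8.44, 8.61 and 8.42 on control diet and 7.84, 8.00 and 8.28 on quercetin, without overlap. Its difference was -0.45 (SE 0.21; limma adjusted p = 0.9996, n = 3), and it lay between -0.35 and -0.57 with any single array left out. P4ha1, the catalytic subunit of the enzyme that hydroxylates prolines of collagen, read 5.81, 6.09 and 5.93 on control diet and 5.52, 5.50 and 5.86 on quercetin. The third quercetin array lay above the lowest control array, and the difference was -0.32 (SE 0.13; limma adjusted p = 0.9996, n = 3). The other P4ha1 probe set, below the lower quartile of signal in 11 of 12 arrays, gave -0.08.

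The remaining members differed by less than 0.2 log2 units between the diets in POR-null mice. Slc2a1, the GLUT1 glucose carrier, was at -0.12 (SE 0.12) on its brightest probe set, and both of its other probe sets gave -0.19. Ndrg1, a stress-responsive protein of epithelial differentiation, was at -0.11 (SE 0.18), and its other 4 probe sets lay between -0.24 and -0.06. Of the secreted factors, Adm, a vasodilator peptide, was at -0.20 (SE 0.21) and Vegfa, the growth factor of blood vessels, at -0.10 (SE 0.13). The other Vegfa probe set gave 0.08 and 1 of the dimmer Hif1a probe sets 0.04, so that 21 of 23 probe sets were lower, against 47.2% of all probe sets. Several Ndrg1, Slc2a1 and Hif1a probe sets measure the same transcripts and are not independent.

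**Figure D2:**
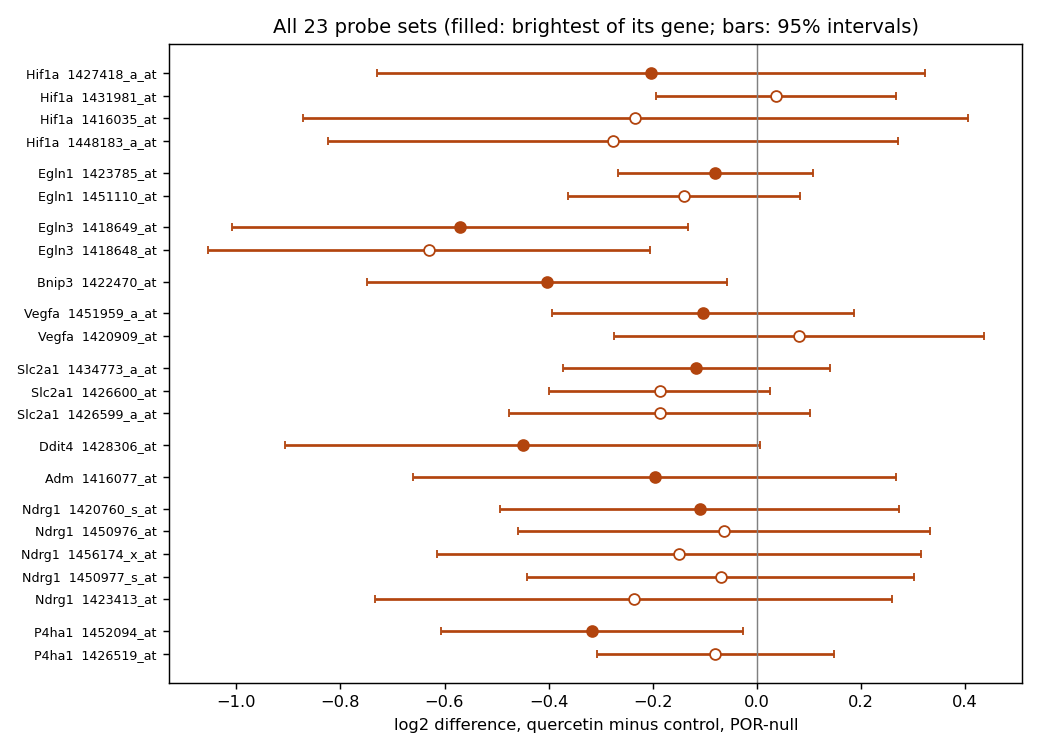
Log2 difference of quercetin minus control diet in POR-null mice for each of the 23 probe sets (filled points, the brightest probe set of its gene; bars, 95% intervals of the moderated fit; 3 arrays per group). The 2 Egln3 probe sets lie at -0.57 and -0.63, and only 1 probe set of Hif1a and 1 of Vegfa lie above 0.

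The count of lower members in POR-null mice was 9 or 10 with any single array left out, 10 without the 3 arrays of high acinar signal and 9 with array weights. MHC class II markers (6 of 7 measured) had list means of 7.85 to 8.80 in POR-null control and 7.54 to 7.88 in POR-null quercetin arrays. In the same arrays B and plasma cell markers (9 of 10 measured) had list means of 6.94 to 8.11 on control diet and 6.44 to 7.11 on quercetin, and acinar markers 6.20 to 6.29 and 6.53 to 9.88. Endothelial markers (all 11 measured) stood at 5.39 to 5.55 and 5.22 to 5.49. With the smooth muscle mean as a covariate all 10 members were again lower and Egln3 differed by -0.63. Without the 3 arrays of high acinar signal Egln3 differed by -0.56. The part of the immune markers in the member differences was not tested.

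The genotypes were compared on the control diet to ask how the colon of the POR-null line differs without quercetin. Because this comparison and the one above share the POR-null control arrays, a high value in those arrays enters both, with opposite signs. Means were higher in POR-null mice for 8 of 10 members and lower for Adm and Ndrg1, with a median log2 difference of 0.17 against -0.01 over all genes, of which 52.3% were lower. Adm, Ndrg1, Egln1 and Vegfa differed by less than their standard error. Again 0 of 23 member probe sets passed by limma, and 3 of 10 members (Egln3, Bnip3 and Hif1a) had an unadjusted p under 0.05, against 6.46% of all genes. Only Egln3 had no overlap between groups, 1 of 10 members against 9.3% of all genes.

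Egln3 read 7.85, 7.46 and 7.50 in wild type control arrays, below each POR-null control array. The log2 difference was 0.82 (SE 0.20, 1.77-fold; limma adjusted p = 0.71, n = 3 arrays per group), and 0.76 (SE 0.20) on the second probe set. Hif1a read 8.61, 8.15 and 8.12 in wild type control arrays, of which the first lay above POR-null control array 3. Its difference was 0.55 (SE 0.24; limma adjusted p = 0.734, n = 3). A second Hif1a probe set gave 0.55 too, and the remaining 2 gave 0.18 and 0.01. Bnip3, at 6.83, 6.90 and 7.06 in wild type control arrays, differed by 0.42 (SE 0.16; limma adjusted p = 0.719, n = 3). Ddit4 differed by 0.41 (SE 0.21), by 0.64 without wild type control array 1 and by 0.245 without wild type control array 3. P4ha1 differed by 0.21 (SE 0.13), by 0.12 without wild type control array 1 and by 0.13 without POR-null control array 2, while Egln1 differed by 0.04 (95% interval -0.14 to 0.23). Deviations of arrays with the same replicate number correlated between 0.11 and 0.26 in these 2 groups, although the labels do not say that the numbers pair the pools. By number, the differences were 0.49, 1.46 and 0.51 for Egln3, 0.22, 1.23 and 0.19 for Hif1a, 0.19, 0.82 and 0.24 for Bnip3 and 0.24, 0.17 and 0.21 for P4ha1. These 4 members had 1 sign in all 3 pairs, as did 26.1% of all genes. With the replicate number as a block in a fit of these groups alone, limma called 47 probe sets, and no member among the brightest probe sets (Egln3 adjusted p = 0.2, Bnip3 0.486, Hif1a 0.501).

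Array 2 of the POR-null control group carried the highest Hif1a, Egln3, Bnip3 and P4ha1 of all 12 arrays. Without it the genotype difference on control diet was 0.57 for Egln3, 0.28 for Hif1a and 0.23 for Bnip3. When limma weighted the arrays, that array received the largest weight (2.72), and Egln3 (1.18, adjusted p = 0.0261) and Hif1a (0.97, adjusted p = 0.0381) passed the threshold, among 399 probe sets called. Over all alternatives the adjusted p ran from 0.0261 to 0.999 for Egln3 and from 0.0381 to 0.999 for Hif1a. Smooth muscle list means did not overlap between these 2 groups, being higher in POR-null arrays, and with that mean as a covariate Egln3 differed by 0.54, Hif1a by 0.58 and Bnip3 by 0.32. MHC class II list means were 6.52 to 8.16 in wild type control against 7.85 to 8.80 in POR-null control arrays, and their part in the member differences was not tested.

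**Figure D3:**
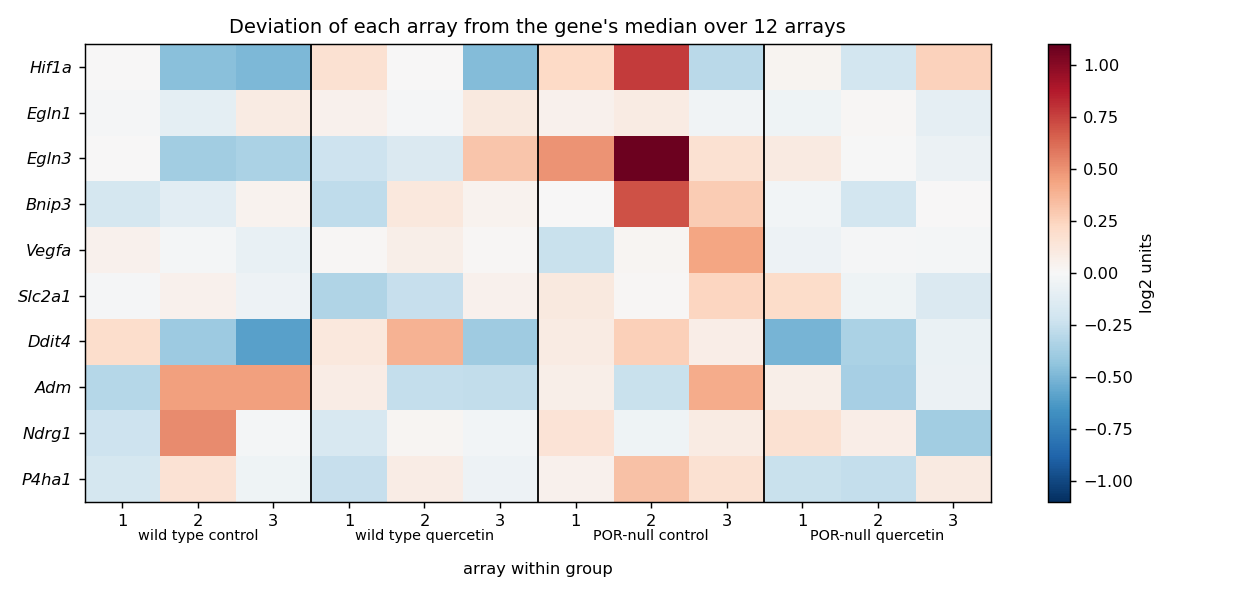
Deviation in log2 units of each array (columns, grouped by genotype and diet) from the median of the gene over 12 arrays (rows, brightest probe set; red above, blue below). POR-null control array 2 stands out in Hif1a, Egln3 and Bnip3, while Adm is high in wild type control arrays 2 and 3 (5.95 each) and POR-null control array 3 (5.9).

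In wild type mice the members had no common direction on quercetin. The mean was lower on quercetin for 4 of 10 members (Slc2a1, Adm, Ndrg1 and P4ha1) against 48.9% of all genes, and the median log2 difference was 0.05. No brightest probe set had an unadjusted p under 0.05, against 5.07% of all genes, and for 0 of 10 members were the groups free of overlap, against 9.28%. By limma 0 of 23 member probe sets passed. Adm read 5.18, 5.95 and 5.95 on control diet and 5.58, 5.23 and 5.22 on quercetin. The first control array was the lowest of all 6, so the groups overlapped, and the difference was -0.35 (SE 0.21; limma adjusted p = 0.957, n = 3). Ddit4 was 8.54, 7.95 and 7.75 on control diet and 8.47, 8.73 and 7.96 on quercetin, a difference of 0.31 (SE 0.21) within the spread of the arrays, which was 0.54 without wild type control array 1 and 0.14 without wild type control array 3. Slc2a1 differed by -0.17 (SE 0.12) on its brightest probe set and by -0.33 (SE 0.13; limma adjusted p = 0.957, n = 3) on a dimmer one, the only 1 of 23 member probe sets with an unadjusted p under 0.05, against 5.15% of all probe sets. Egln3 differed by 0.22 (SE 0.20), and by -0.22 with the smooth muscle mean as a covariate. The 95% intervals reached from -0.22 to 0.66 for Egln3 and from -0.30 to 0.40 for Bnip3.

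On the quercetin diet the members had no common direction between the genotypes. Of 10 members 5 were lower in POR-null mice, against 51.6% of all genes, and none had an unadjusted p under 0.05, against 2.28%. Egln3 means were 7.85 (SD 0.08) in POR-null and 7.82 (SD 0.29) in wild type mice, and Bnip3 means 6.94 (SD 0.11) and 6.98 (SD 0.21). Vegfa had no overlap between groups (7.26, 7.30 and 7.29 in POR-null, 7.33, 7.38 and 7.33 in wild type), but its difference was only -0.06 (SE 0.13). That made 1 of 10 members without overlap, against 6.69% of all genes. Ddit4 had the largest difference, -0.35 (SE 0.21; limma adjusted p = 0.998, n = 3), with a 95% interval from -0.80 to 0.11. For Egln3 the interval ran from -0.41 to 0.47. Lower in POR-null mice were 6 of 6 MHC class II markers (median -0.995) and 9 of 9 B and plasma cell markers (median -0.60). Higher were 11 of 11 acinar markers (median 1.44) and 8 of 11 colonocyte markers (median 0.07). The part of these markers in the member differences was not tested.

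**Figure D4:**
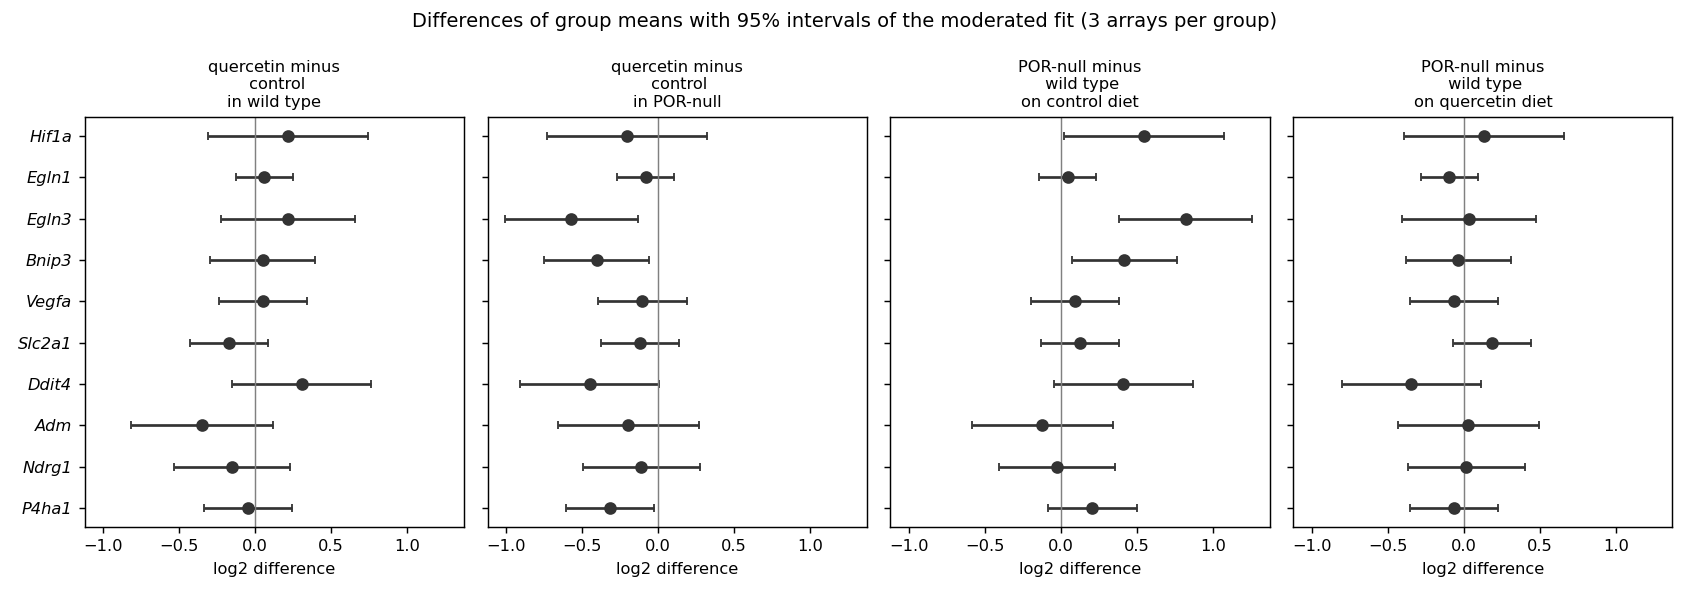
Log2 difference of group means for each hypoxia-inducible gene in 4 comparisons (points, brightest probe set; bars, 95% intervals of the moderated fit; 3 arrays per group). All 10 points lie below 0 for quercetin in POR-null mice and 8 of 10 above 0 for POR-null against wild type on control diet, with Egln3 furthest out in both.

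Whether the response to quercetin differed between the genotypes was tested as an interaction. The response was lower in POR-null than in wild type mice for 7 of 10 members, against 48.8% of all genes. The largest differences of response were those of Egln3 (-0.79, SE 0.29; limma adjusted p = 0.998, n = 3 arrays per group) and Ddit4 (-0.76, SE 0.30; adjusted p = 0.998). These were the 2 of 10 members with an unadjusted p under 0.05, against 4.64% of all genes, and Bnip3 followed at -0.45 (SE 0.23). By limma 0 of 23 member probe sets passed. Without POR-null control array 2 the value was -0.54 for Egln3, -0.70 for Ddit4 and -0.27 for Bnip3. Markers of some other cells were lower by the same measure, in 6 of 6 MHC class II genes (median -2.10) and 9 of 9 B and plasma cell genes (median -1.69). So were 12 of 12 smooth muscle genes (median -1.87) and 12 of 12 fibroblast and matrix genes (median -0.93). Others were higher, in 10 of 11 pancreatic acinar genes (median 2.97), 9 of 11 small intestine genes (median 0.62) and 7 of 11 colonocyte genes (median 0.05). With the smooth muscle mean as a covariate the value was -0.41 for Egln3, -0.93 for Ddit4 and -0.32 for Bnip3, and the part of the other markers was not tested.

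The surrounding pathway was examined through further lists of genes, which like the members were chosen with earlier results of these data known. Of the oxygen sensing and HIF machinery, 11 of 14 genes were measured. In POR-null mice 10 of these 11 had a lower mean with quercetin (median log2 difference -0.10), against 47.1% of all genes. The smallest p-values there were those of Elob, a subunit of the VHL ligase (-0.18, SE 0.10), the coactivator Crebbp (-0.15, SE 0.10) and Hif3a (-0.10, SE 0.10). Of the 11 genes only Elob and Crebbp differed by more than their standard error in that comparison. Genes of a list were read on the same pools and are not separate observations. On control diet Crebbp was higher in POR-null mice by 0.29 (SE 0.10), Cited2, which competes with HIF for that coactivator, by 0.27 (SE 0.16), and Epas1, another HIF alpha subunit, was at -0.25 (SE 0.15). In wild type mice on quercetin Epas1 was at -0.24 (SE 0.15), Cul2 at -0.11 and Hif3a at -0.10.

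Of other HIF-inducible genes outside glucose metabolism, 20 of 24 were measured. In POR-null mice 19 of these 20 had a lower mean with quercetin (median -0.10), against 47.1% of all genes. Plod1, a collagen lysyl hydroxylase, was at -0.23 (SE 0.10), Ero1a, an oxidase of protein folding, at -0.25 (SE 0.12) and Cxcr4, a chemokine receptor at low signal, at -0.45 (SE 0.29). Besides these, only Kdm3a, Stc2, Nt5e, Tff3 and Edn1 differed by more than their standard error. Wild type mice showed no common direction, with 9 of 20 lower, against 48.9% of all genes. Bhlhe40, a transcriptional repressor of the clock, was at -0.51 (SE 0.12) there, Edn1, the vasoconstrictor endothelin, at 0.61 (SE 0.21) and Plod2 at 0.46 (SE 0.20). Plod2 was at low signal, with a mean of 4.82 log2 units where the lower quartiles of the arrays were 4.66 to 4.78. In the same comparison 12 of 12 fibroblast and matrix markers were higher (median 0.79), with list means of 5.59 to 6.95 on control diet and 6.68 to 7.48 on quercetin. So were 12 of 12 smooth muscle markers (median 2.18) and 6 of 6 MHC class II markers (median 1.54). Lower were 10 of 11 acinar markers (median -1.19) and 9 of 11 small intestine markers (median -0.51). The part of these markers in the gene differences was not tested. Of the fibroblast and matrix markers 11 of 12 were also higher in POR-null mice on control diet (median 0.60). On control diet POR-null mice differed by 0.53 (SE 0.21) in Edn1, 0.33 (SE 0.13) in the goblet cell trefoil peptide Tff3 and -0.29 (SE 0.12) in Bhlhe40. Goblet cell list means (7 of 8 measured) were 11.67 to 12.22 in wild type control and 11.89 to 12.25 in POR-null control arrays, and their part in the Tff3 difference was not tested. The difference of response was -0.84 (SE 0.30) for Edn1 and 0.46 (SE 0.17) for Bhlhe40.

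Of the glucose metabolism genes driven by HIF, 15 of 17 were measured. Quercetin arrays had the lower mean for 12 of them in the POR-null line (median -0.10), against 47.1% of all genes. In wild type mice they had it for 11 (median -0.08), against 48.9% of all genes. In POR-null mice hexokinase Hk2 was at -0.40 (SE 0.16), Hk1 at -0.22 (SE 0.15) and lactate dehydrogenase Ldha at -0.19 (SE 0.09). Only Gys1 and Pfkfb3 also differed there by more than their standard error. In wild type mice the carbonic anhydrases Car9 and Car12, which buffer acid at the cell surface, were at -0.26 (SE 0.11) and -0.67 (SE 0.33), and Ldha at -0.14 (SE 0.09). Of the other lower genes in wild type mice, only Pgm1 and Hk2 differed by more than their standard error. On control diet 9 of 15 were higher in POR-null mice and 6 lower, where 52.3% of all genes were lower, with Hk2 at 0.25 (SE 0.16).

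Receptors and partners of the members (all 11 measured) were higher on quercetin in 8 cases and lower in 3 in wild type mice (median 0.16). They were higher in 4 cases and lower in 7 in POR-null mice. Of all genes, 48.9% were lower in wild type and 47.1% in POR-null mice. Ramp2, a subunit of the adrenomedullin receptor, was at 0.37 (SE 0.12) in wild type mice, the VEGF co-receptor Nrp1 at 0.36 (SE 0.16) and the VEGF receptor Kdr at 0.20 (SE 0.12). On control diet Kdr, Ramp2 and Nrp1 were at 0.30, 0.28 and 0.35 in POR-null against wild type mice. Kdr is also in the endothelial list, and endothelial list means were 5.19 to 5.42 in wild type control against 5.38 to 5.52 in wild type quercetin and 5.39 to 5.55 in POR-null control arrays. Whether vessel content accounts for them was not tested. Glucocorticoid-responsive genes (all 8 measured) were listed because Ddit4 also responds to these hormones. On control diet 6 of 8 were lower in POR-null mice, against 52.3% of all genes. Tsc22d3 (0.40, SE 0.17) and Klf9 (0.29, SE 0.13) were higher there and Sgk1 (-0.70, SE 0.23) lower. On quercetin in POR-null mice Tsc22d3 was at -0.31 (SE 0.17), Klf9 at -0.23 (SE 0.13) and Errfi1 at -0.23 (SE 0.10). In wild type mice on quercetin Errfi1 was at -0.39 (SE 0.10), and 5 of 8 were lower, against 48.9% of all genes. In POR-null mice on quercetin 3 of 8 were lower, against 47.1% of all genes. By limma none of the genes of these 5 lists passed in any contrast (adjusted p of at least 0.71), and 0 to 4 genes of a list had an unadjusted p under 0.05. The most were 4 of 20 other HIF-inducible genes, both for quercetin in wild type mice (5.07% of all genes) and for genotype on control diet (6.46%), and 3 of 8 glucocorticoid-responsive genes for the latter.

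Members were compared with each other over the 12 arrays in 45 pairs. Bnip3 and P4ha1 varied together most closely, with Pearson r = 0.79 (permutation p = 7e-04, adjusted p = 0.0315 over 45 pairs) and Spearman rho = 0.75 (permutation p = 0.00686, adjusted p = 0.309), n = 12 arrays. Without the 2 arrays farthest from the Bnip3 median r was 0.61, and on deviations from the group means it was 0.68. This was 1 of 45 pairs past the threshold by Pearson's r, and by Spearman's rho 0 of 45 passed. Egln3 and Bnip3 had r = 0.74 (permutation p = 0.0159, adjusted p = 0.27) but rho = 0.44 (permutation p = 0.16, adjusted p = 0.802). For this pair r was 0.33 without the 2 arrays farthest from the Egln3 median and 0.48 on deviations from the group means. Leaving out extreme arrays narrows the range of a gene, so a lower r without them does not show what a relation rests on. Hif1a had r = 0.64 with Ddit4 (permutation p = 0.0239, adjusted p = 0.27; rho = 0.57, permutation p = 0.0541, adjusted p = 0.487), and r = 0.49 without the 2 arrays farthest from the Hif1a median. With Egln3 it had r = 0.65 (permutation p = 0.024, adjusted p = 0.27; rho = 0.39, permutation p = 0.211, adjusted p = 0.802), and r = 0.09 without the same arrays. In all 27 pairs had r above 0 and 18 below 0, so the 10 genes did not vary as 1 block.

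The genes most like each member over the 12 arrays were ranked by Pearson r among genes with a mean of at least 6 log2 units, as a description of these pools only. Closest to Ddit4 were Kdm3a, a histone demethylase that is itself in the list of other HIF-inducible genes (r = 0.89), and Tsc22d3 of the glucocorticoid list (0.88). Closest to Egln3 were Atp6v1b2 (0.87) and Ehd4 (0.84), to Bnip3 Itgb4 (0.87) and the phosphofructokinase Pfkp (0.85), and to Hif1a Vopp1 (0.92) and Fam174b (0.90). Closest to Ndrg1 were the transporters Abcc3 (0.94) and Abcb6 (0.93), and to Slc2a1 the citrate carrier Slc13a2 (0.94) and Myo1d (0.84). For Egln1 they were Orai1 and Heatr1, for Vegfa Nkx2-6 and Dop1b, for Adm Arfgef1 and Tbc1d20, and for P4ha1 Tango2 and Dynll1, with r between 0.81 and 0.88. None of the 20 places was taken by another member. Adm (mean 5.495) and P4ha1 (mean 5.75) lay below the limit of 6 log2 units and could not take a place.

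Probe sets of the same gene differed in how well they tracked each other over the 12 arrays. The 2 Egln3 probe sets had r = 0.97, and the 5 of Ndrg1 between 0.66 and 0.95. For Hif1a the brightest probe set had r = 0.90 with one probe set, 0.65 with another and 0.41 with the third, which varied little (SD 0.10 log2 units). The 2 Egln1 probe sets had r = 0.21 and SDs of 0.07 and 0.11, and the 2 of Vegfa r = 0.46.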

How the data were processed

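RNA of the colon epithelium was hybridised to 12 arrays, 3 per group. The deposited values are log2 signal per probe set, and the authors' processing, per the submitters' processing notes, involved MAS5 and RMA. Which of these made the table, and in what version, is not given in the sources used here. Its values, which ran from 2.70 to 14.09, were used as they stand. Of the 22690 probe sets 64 controls were left out, and 22626 were tested without a filter on signal. Names came from the platform annotation (20380 probe sets with 1 symbol, 691 with several, 1555 with none). By gene identifier 20351 of the named ones matched RefSeq GRCm38.p6, and 0 symbols changed. A gene was represented by its probe set of the highest mean.

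All 12 arrays entered 1 limma fit (limma 3.58.1, R 4.3.3, eBayes with trend) of 4 group means with 5 contrasts, 8 residual and 4.91 prior degrees of freedom. Tests were two-sided with Benjamini-Hochberg adjustment over all probe sets tested and a threshold of 0.05. SE is that of the moderated fit, and SD the spread over 3 arrays. The code was tested on simulated data. Pair correlations used 100000 permutations. Depth has no meaning for arrays, and the number of arrays limits the precision. Named genes were the members, the 3 of the smallest p per list and contrast (the text gives the main ones), and the 2 most alike per member. The members and lists were chosen with earlier results of these data known. Alternatives were quantile normalization, no trend, a filter on dim probe sets, array weights, a replicate block, a smooth muscle covariate, only the groups compared, each array left out, gene means over probe sets and, added after seeing the data, leaving out 3 arrays of high acinar signal and a replicate block in the control groups alone.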

Additional observations from a re-analysis of the deposited data

How the results depend on the processing

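With 3 pools per group, member differences below about the width of the intervals given could not be shown. Of 810 member differences under an alternative, 50 had the opposite sign. Of these 49 belonged to differences smaller than their standard error, and the other was Egln3 in wild type mice (-0.22 with the smooth muscle covariate). With array weights 2 passed the threshold (Egln3 and Hif1a between genotypes on control diet). Probe sets called, 0 in each contrast by limma with 1165 (quercetin in wild type), 637 (quercetin in POR-null), 1537 (genotype on control diet), 541 (genotype on quercetin) and 1073 (difference of response) at an unadjusted p under 0.05, became 2 and 399 with array weights for quercetin in wild type mice and genotype on control diet. The latter was 1 without the arrays of high acinar signal. Genotype on quercetin gave 1 with only the groups compared and 1 with the replicate block.

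With single arrays left out, called probe sets ranged from 0 to 3 for quercetin in wild type (3 without wild type quercetin array 1), 0 to 1 for quercetin in POR-null (1 without POR-null quercetin array 1), 0 to 41 for genotype on control diet (41 without wild type control array 1), and 0 to 1 for both genotype on quercetin and the difference of response (1 without wild type quercetin array 1 or POR-null quercetin array 1). Lower members ranged from 2 to 5 of 10 for quercetin in wild type (2 without wild type control array 2), from 0 to 3 for genotype on control diet (0 without POR-null control array 2, and 1 without wild type control array 2 or 3) and from 5 to 8 for genotype on quercetin (8 without POR-null quercetin array 1). With the smooth muscle covariate 1 member was lower for genotype on control diet. The cause was not tested. The labels do not say that replicate numbers pair the pools. Deviations of arrays with the same number correlated between -0.20 and 0.26, with 6 of 18 pairs above 0.1 and 9 of 12 arrays closest to their own number. The 3 pairs of the control groups were all above 0.1, and a replicate block in those groups alone, added after seeing the data, called 47 probe sets. Neither replicate block changed a member's call.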
